A study of Mus musculus with 5 samples.

Results

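The genes described here build the DNA replication machinery, from the proteins that mark and license origins to those that unwind, copy, join and repackage DNA at the fork. They were chosen as every probe set whose gene symbol in the platform annotation is on a list of 47 replication genes. The annotation held 99 such probe sets for 46 of the 47, out of 18193 genes with a probe set of their own. Chaf1a, the large subunit of chromatin assembly factor 1, had no intensity to analyse here and enters only the promoter counts. All 46 passed the filter on low intensity, which asks for a value above the 40th percentile of the array on at least 2 of 5 arrays. In 44 of them both naive arrays were above that level, and in Cdc6 and Gins2 1 of the 2 naive arrays was.

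The activated group was CD4+ T cells with a transgenic receptor that recognises MOPC315, a myeloma or plasma cell tumor line, taken from tumor-draining lymph nodes of SCID mice at day 8 after a subcutaneous injection of 100000 tumor cells in Matrigel (3 arrays). They were sorted as CD4+ and GB113+ to a purity of at least 95%, and the nodes of 12 to 15 mice were pooled in each of 3 independent experiments. The naive group was CD4+ T cells from pooled nodes of untouched mice of the same transgenic SCID kind, handled in the same way in 2 independent experiments (2 arrays). All mice were adult, aged 7 to 12 weeks, on a Balb/c background, and SCID mice cannot rearrange receptor genes of their own. A group given Matrigel alone was not analysed here.

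Replication starts at origins bound by the origin recognition complex (ORC). With Cdc6 and Cdt1 it loads the ring-shaped MCM helicase, a step called licensing, which geminin (Gmnn) blocks by binding Cdt1. The kinase Cdc7 with its activator Dbf4 then helps to recruit Cdc45 and the GINS complex, which turn the loaded ring into a working helicase. Naive T cells rest outside the cell cycle, and antigen drives them into rapid division. Many genes of this machinery are known targets of the E2F transcription factors, which act at the entry into S phase.

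All 6 subunits of the MCM helicase, 5 of 7 helicase activation genes and 4 of 6 genes of the clamp and its loader rose in activated cells, whereas 0 of 6 ORC subunits passed in either direction. Of 46 members tested, 29 rose and 0 fell (limma, with Benjamini-Hochberg adjusted p-values over 12873 genes held to a threshold of 0.05). Over all genes 6.36% rose and 4.14% fell. At an unadjusted p under 0.05, 35 members were higher and 1, Orc5, was lower, against 12.8% and 11.5% of all genes. A rise of at least 2-fold that passed the test was found in 22 members, against 3.81% of all genes. The median log2 fold change of the members was 0.96, against -0.03 over all genes, with 16 added to each intensity before taking log2, a step that shrinks the changes of dim genes. The 3 activated arrays lay above both naive arrays in 36 members (20.3% of all genes) and below both in 2, Orc5 and Rfc1 (20.7% of all genes). In RNA from many cells, a larger share of dividing cells and more transcript per cell cannot be told apart. Of the 29 calls, 20 held under every alternative in which the member was fitted. The other 9 were lost under at least 1, each given below with the member it concerns. Among the 20, Cdc6, Mcm7 and Pole were absent from the fit on probe sets without a shared-sequence suffix, as all their probe sets carry one. Leaving out 1 array moved the count of rises among all genes over 1.5 times only for naive replicate 2, to 461, and among members it gave 23 to 27.

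The arrays carried the markers of T cells. Summed over 9 T cell markers, intensity was 16922.8 to 18492.2 on activated arrays and 16589.3 to 16666.9 on naive arrays; of the 9, Cd5 rose by 1.85 and Thy1 fell by 0.79. Summed over 5 B cell markers it was 60.8 to 69.2 on activated arrays and 41.7 to 55.1 on naive arrays, and 0 of the 3 tested passed. The 6 plasma cell markers, which myeloma cells would carry, summed to 1118.8 to 1286.5 on activated arrays and 1262 to 1380.3 on naive arrays, mostly Xbp1, and 1 of 5 tested, Prdm1, fell. Their member Tnfrsf17 stayed at or below 6.4 on all 5 arrays. Summed over 8 myeloid markers, intensity was 2910.9, 151.9 and 777.8 on activated arrays and 309.8 and 191.6 on naive arrays, and 0 of 7 tested passed. Activated replicate 1 was also the highest for 4 NK cell markers, at 1021.3, with 472.6 and 526.1 on the other activated arrays, against 502.9 and 482 in naive cells. Without it 27 members rose, with a median log2 fold change of 0.97. The CD8 chain Cd8b1 fell, with 326.5, 246.8 and 275 in activated cells against 797.6 and 995.7 in naive cells, while Cd8a did not pass. The ratio of 3' to 5' actin signal, a gauge of RNA integrity, was 1.19, 1.29 and 1.25 on activated arrays and 1.42 and 1.78 on naive arrays. The part of Cd8b1-bearing cells and of RNA integrity in the results was not tested.

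**Figure D1:**
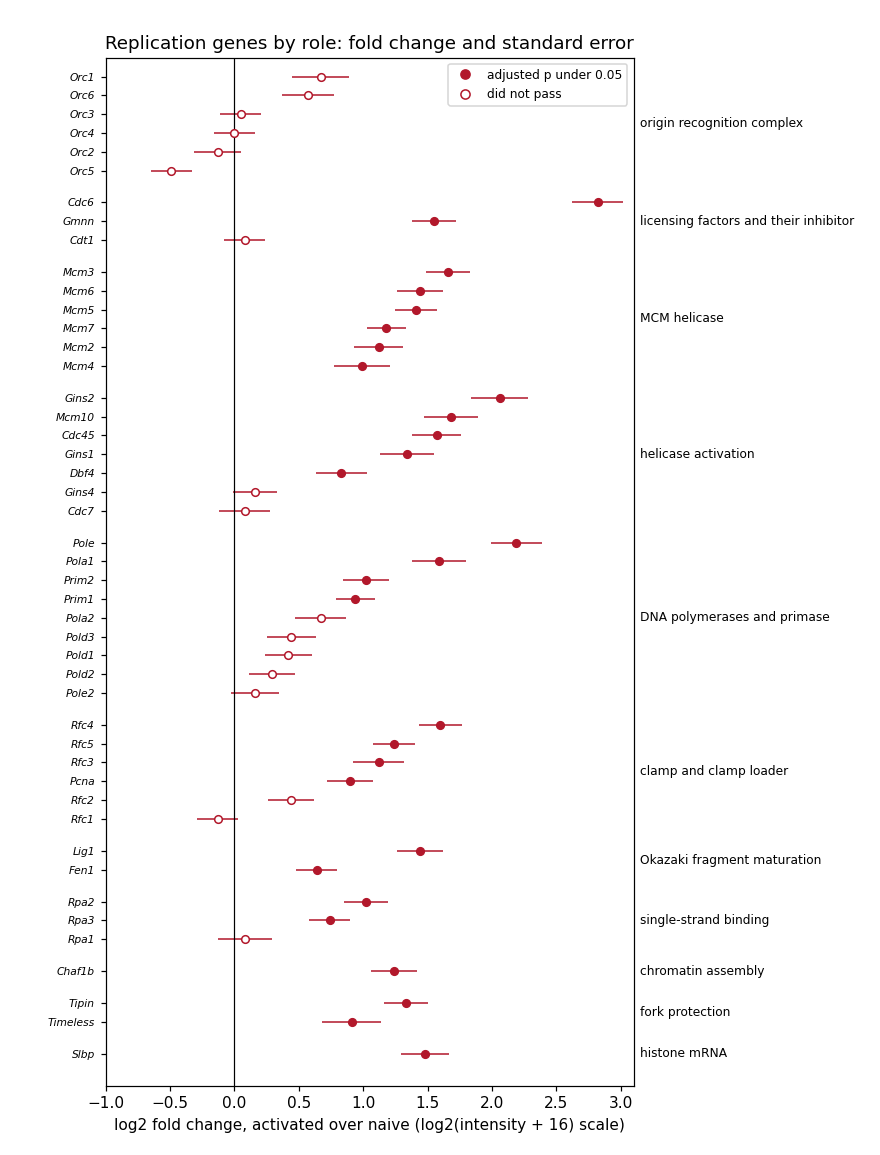
Log2 fold change, activated over naive, of the 46 members tested, grouped by role, with bars for the standard error of limma's moderated test. Filled points passed at an adjusted p under 0.05; all 6 MCM subunits are filled, between 0.99 and 1.66, and all 6 ORC subunits are open, between -0.49 and 0.67.

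Promoter sequences are shown for the members that hold an E2F-type motif upstream of their start, since E2F factors are known regulators of these genes and the list did not use promoter letters. Sequences came from RefSeq (GRCm38.p6), 250 bases before to 50 after each annotated start, and 38 of the 47 members matched by symbol. These 38 include Chaf1a, which had no probe set. The motif was TTTGGCGC, TTTGCCGC, TTTCGCGC or TTTCCCGC on either strand, and matches could overlap each other. It was found in 14 of 38 members (36.8%), against 2.6% of 27025 genes in the promoter table and 4.53% of 10403 genes tested on the arrays. Median GC content was 62.3% in the members' promoters, 52.7% in all promoters and 60% in those of tested genes. It was found in 8 of 22 members that rose (36.4%) and in 6 of 15 that did not pass (40%). The CCAAT letters, on either strand, were found in 22 of 38 members (57.9%) and in 42.4% of tested genes. A match is a description of the letters, not of binding. The sequences run 5' to 3' on the gene's strand up to the base before the start, with matches in capitals. Those of members that rose are Mcm5 (chr8:75109336-75109508, plus strand), Mcm6 (chr1:128359706-128359835, minus), Mcm7 (chr5:138171884-138172068, minus), Cdc6 (chr11:98907993-98908150, plus), Pola1 (chrX:93632156-93632313, minus) and Rfc3 (chr5:151651209-151651238, minus). Those of members that did not pass are Orc1 (chr4:108579407-108579453, plus) and Orc3 (chr4:34614943-34615003, minus).
Mcm5: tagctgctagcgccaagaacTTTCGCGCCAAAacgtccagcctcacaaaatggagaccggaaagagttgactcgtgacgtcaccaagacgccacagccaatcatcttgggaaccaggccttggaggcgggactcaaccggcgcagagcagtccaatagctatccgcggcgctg
Mcm6: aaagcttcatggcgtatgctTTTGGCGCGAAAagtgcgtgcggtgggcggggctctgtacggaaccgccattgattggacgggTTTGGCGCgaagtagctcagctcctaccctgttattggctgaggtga
Mcm7: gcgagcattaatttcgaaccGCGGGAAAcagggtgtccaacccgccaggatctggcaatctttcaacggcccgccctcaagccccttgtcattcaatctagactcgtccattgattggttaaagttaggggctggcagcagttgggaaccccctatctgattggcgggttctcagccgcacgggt
Cdc6: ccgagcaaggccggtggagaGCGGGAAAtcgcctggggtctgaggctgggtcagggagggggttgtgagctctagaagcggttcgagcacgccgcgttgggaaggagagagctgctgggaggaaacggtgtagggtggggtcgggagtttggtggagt
Pola1: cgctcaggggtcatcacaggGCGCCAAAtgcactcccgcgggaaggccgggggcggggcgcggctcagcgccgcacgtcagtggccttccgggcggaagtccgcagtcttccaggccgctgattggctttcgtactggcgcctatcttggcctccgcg
Rfc3: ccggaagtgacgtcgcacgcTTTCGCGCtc
Orc1: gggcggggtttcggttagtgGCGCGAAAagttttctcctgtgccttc
Orc3: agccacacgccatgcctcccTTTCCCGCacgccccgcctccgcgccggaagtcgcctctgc
In Mcm5 and Mcm6 a match on each strand overlaps to form a run of 12 bases, from 153 to 142 bases before the start in Mcm5 and from 110 to 99 before it in Mcm6.

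**Figure D2:**
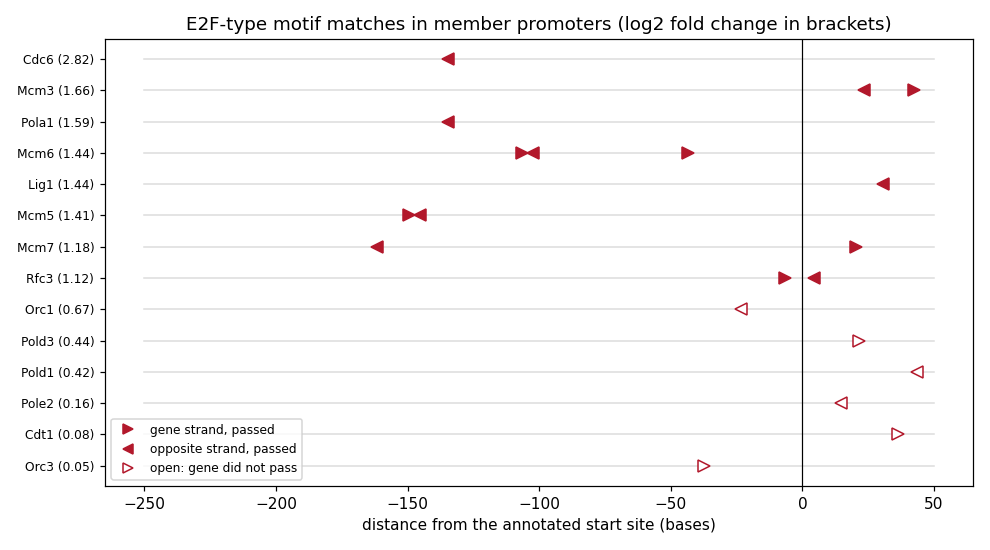
Position of E2F-type motif matches, in bases from the annotated start, in the promoters of the 14 members that hold one, with the log2 fold change of each in brackets. Right-pointing marks lie on the gene's strand, left-pointing marks on the other; filled marks belong to the 8 members that rose, open marks to the 6 that did not pass.

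None of the 6 ORC subunits passed in either direction, and their median log2 fold change was 0.03. Orc4 had intensities of 281.8, 291 and 265.5 in activated cells and 283.7 and 273.6 in naive cells, a log2 fold change of 0.00 ± 0.16 (SE). Its 95% interval, unadjusted as are all those given here, ran from -0.34 to 0.35. The groups overlapped for Orc4, as they did for Orc2 and Orc3. Orc2 had 133.4, 164.5 and 149.1 in activated cells and 149.4 and 179 in naive cells (log2 fold change -0.13, interval -0.52 to 0.27). Orc3 had 241.6, 209.5 and 243.6 in activated cells and 214.8 and 230.3 in naive cells (0.05, interval -0.31 to 0.41). The intervals of these 3 probe sets leave out a 2-fold change in either direction. The sign of Orc2, Orc3 and Orc4 turned when all probe sets of a gene were averaged, and that of Orc4 under 5 further settings.

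Orc5 and Orc1 stood on opposite sides. Orc5 had 206.6, 222.8 and 222.6 in activated cells and 302.9 and 322 in naive cells. Every activated array was below both naive arrays, as in 20.7% of all genes. The log2 fold change of Orc5, -0.49 ± 0.16 (SE), did not pass (adjusted p = 0.077), but did with a bioC split of the arrays as a block (described at the end), at -0.48. It also passed in the fit where the probe sets of every gene were averaged, at -0.49. Orc5 has only 1 probe set, so its own values were the same in that fit. Orc1, the ATPase subunit whose level follows the cell cycle in human cells, had 66.6, 80.9 and 62.1 in activated cells and 45.3 and 31.4 in naive cells. It did not pass, at 0.67 ± 0.22 (SE, adjusted p = 0.082), whereas the second probe set of Orc1 passed in the fit over all probe sets, at 1.22 (adjusted p = 0.014). With both averaged, Orc1 rose by 0.94. Orc6 had 111.6, 131.3 and 163 in activated cells and 76.6 and 94.4 in naive cells, and did not pass, at 0.57 ± 0.20 (SE, adjusted p = 0.11). It passed with the bioC split as a block, at 0.62. For Orc1 and Orc6 every activated array was above both naive arrays, as in 20.3% of all genes.

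Among the licensing factors, Cdc6 and the inhibitor geminin rose and Cdt1 did not pass. Cdc6 had intensities of 208.5, 160.8 and 180.5 in activated cells and 13.3 and 11 in naive cells, where it lay at the filter level of 13.4 and 10.8. It had the largest log2 fold change of the 46 members on this scale, at 2.82 ± 0.20 (SE, adjusted p = 1.4e-05). Because naive cells were so dim, the size depends on the pseudocount: it was 3.81 with 1 and 1.69 with 64. Gmnn had 421.9, 476.5 and 524.8 in activated cells and 141 and 161.9 in naive cells, a rise of 1.55 ± 0.17 (SE, adjusted p = 2.4e-04). Cdt1, whose protein is destroyed in S phase, was about as bright in both groups, at 719.8, 824 and 826.2 in activated cells and 682.6 and 810.4 in naive cells. Its log2 fold change was 0.08 ± 0.16 (SE, adjusted p = 0.81, interval -0.27 to 0.44), and -0.039 without naive replicate 1. The second tested Cdt1 probe set lay at 0.48 (adjusted p = 0.16 among probe sets). The Cdc6 promoter above holds the E2F-type letters upstream of its start, and Cdt1 holds them from 33 to 40 bases after it.

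All 6 subunits of the MCM helicase, which unwinds DNA at the fork, rose, between 0.99 and 1.66 on the log2 scale with a median of 1.29. Mcm3 had the largest rise, with intensities of 698.5, 705.2 and 534.1 in activated cells and 195.2 and 188.5 in naive cells (log2 fold change 1.66 ± 0.17, SE, adjusted p = 2.0e-04). Mcm6 had 780.2, 579.6 and 590.3 in activated cells and 221.2 and 234.5 in naive cells, a rise of 1.44. Mcm5 had 1106.4, 1230.5 and 1321.3 in activated cells and 470.5 and 428.5 in naive cells, a rise of 1.41. In each of the 6 the lowest activated array was above the highest naive array. Mcm7 had 1639.5, 1494.3 and 1498.7 in activated cells and 627.8 and 721.7 in naive cells, a rise of 1.18. Mcm2 had 520.3, 434 and 338.2 in activated cells and 190.5 and 183.5 in naive cells, a rise of 1.12. A second Mcm2 probe set lay at 0.55 and did not pass (adjusted p = 0.092 in limma's fit over probe sets). Mcm4 had the smallest rise, with 899.4, 1180 and 1451.3 in activated cells and 484.1 and 678.3 in naive cells (0.99 ± 0.22, SE, adjusted p = 0.018). Differences between subunits were not tested, and the 95% intervals of Mcm3 (1.27 to 2.05) and Mcm4 (0.50 to 1.48) overlap. The call of Mcm4 was lost without activated replicate 2, at 0.98, without naive replicate 1, at 0.75, and without the intensity trend in the variance model.

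**Figure D3:**
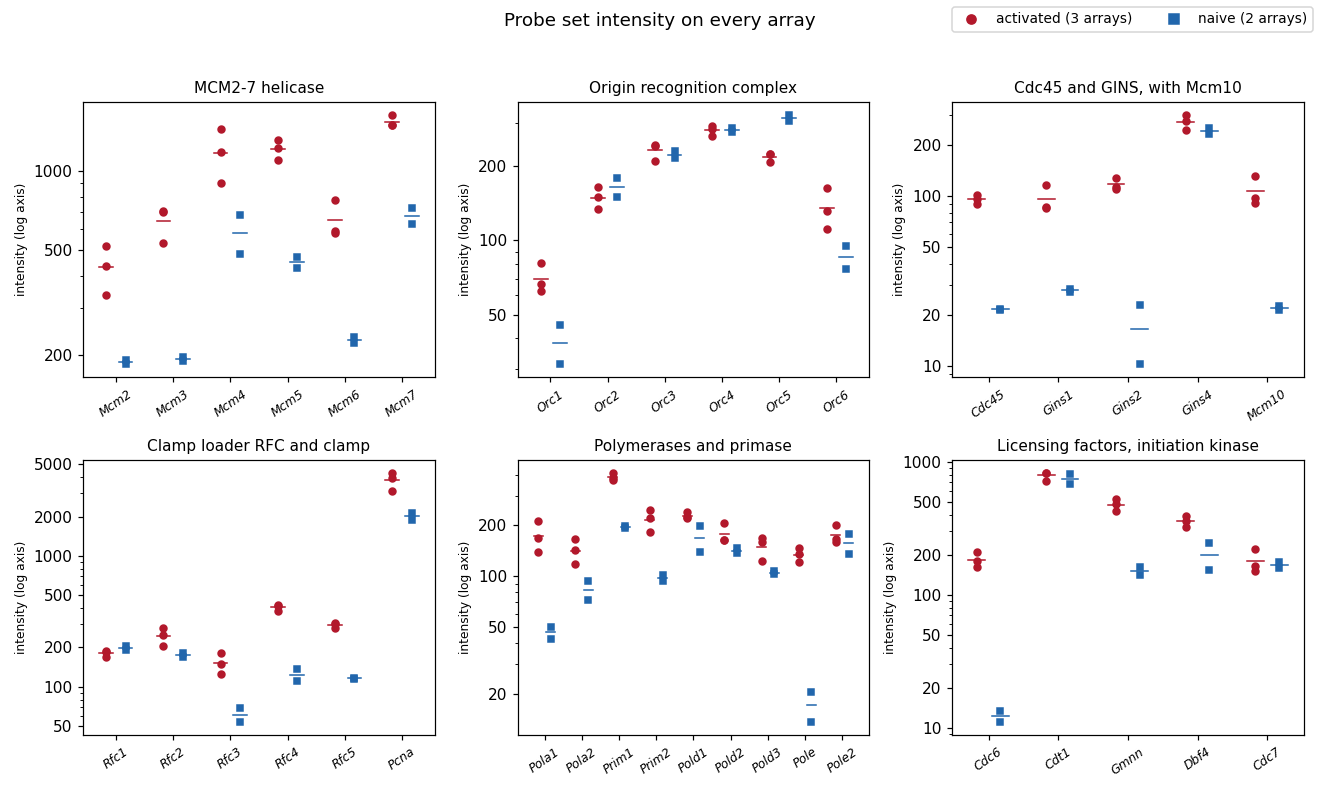
Probe set intensity (log axis) of members of 6 complexes or steps on every array, with activated arrays as circles left of naive arrays as squares and group means as short lines. For every MCM subunit the activated arrays lie above both naive arrays, while for Orc2, Orc3, Orc4, Cdt1, Cdc7, Gins4 and Pole2 the groups overlap.

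The factors that switch the helicase on split into 5 that rose and 2 that did not pass. Gins2, a GINS subunit, had 113.8, 128.3 and 110.1 in activated cells and 10.2 and 22.7 in naive cells. Its rise of 2.06 ± 0.22 (SE, adjusted p = 2.4e-04) was 2.86 with a pseudocount of 1 and 1.18 with 64. Gins1 had 116.9, 84.9 and 86.2 in activated cells and 28.4 and 27.2 in naive cells, a rise of 1.34. The third measured subunit of the complex, Gins4, had 300.3, 277.8 and 244.5 in activated cells and 252.9 and 231.7 in naive cells, and the groups overlapped (0.16 ± 0.17, SE, adjusted p = 0.60, interval -0.20 to 0.53). Gins3, on the list of other replication genes, had a log2 fold change of 0.36 and did not pass either. The 4 subunits form 1 complex in the cell; differences between them were not tested.

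Cdc45, the partner of MCM and GINS in the active helicase, had 96.2, 101.3 and 89.2 in activated cells and 21.4 and 21.6 in naive cells. It rose by 1.57 ± 0.19 (SE, adjusted p = 5.3e-04), while a second tested Cdc45 probe set lay at 0.23. Mcm10, which acts as the helicase starts to move, had 91.1, 131.8 and 97.2 in activated cells and 22.4 and 21.3 in naive cells, a rise of 1.68. The probe set behind this call carries the suffix a_at, for a match to several transcripts. The brightest Mcm10 probe set without such a suffix lay at 0.63 and did not pass. It was dim, with 16.2, 19.7 and 16.3 in activated cells and 4.5 and 6.7 in naive cells. Its ratio of means was 3.11, which the added 16 shrinks on the log2 scale. Of the kinase that fires origins, the activator Dbf4 rose and the catalytic subunit Cdc7 did not pass. Dbf4 had 321.9, 359.8 and 393.1 in activated cells and 154.5 and 243.9 in naive cells (0.83 ± 0.20, SE, adjusted p = 0.028). It lost its call without activated replicate 2, at 0.82, without activated replicate 3, at 0.76, without naive replicate 1, at 0.52, and with median centring, no filter or no intensity trend. Cdc7 had 163.5, 150.1 and 222 in activated cells and 175.2 and 157.9 in naive cells, an overlap of the groups (0.08, interval -0.36 to 0.51). Its sign turned without activated replicate 3, at -0.079.

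Of the 9 polymerase and primase subunits 4 rose, and the catalytic subunits of polymerases epsilon and alpha led. Pole, the catalytic subunit of polymerase epsilon, which copies the leading strand, had 121.1, 146.6 and 134.5 in activated cells and 13.6 and 20.6 in naive cells. Its rise of 2.19 ± 0.20 (SE, adjusted p = 8.8e-05) was 2.92 with a pseudocount of 1 and 1.29 with 64. Its partner Pole2 had 165.8, 159.1 and 201.4 in activated cells and 134.7 and 177.5 in naive cells, which overlapped (0.16 ± 0.19, SE, adjusted p = 0.67), and lay at -0.022 without naive replicate 1. Pola1, the catalytic subunit of the polymerase that starts each new strand, had 168.2, 139.5 and 211.2 in activated cells and 50.1 and 42.5 in naive cells, a rise of 1.59. The primase subunits, which lay the RNA primer, rose by about 1 each. Prim2 had 181.7, 246.1 and 219.9 in activated cells and 101.9 and 93.5 in naive cells, a rise of 1.02 that lost its call without naive replicate 2, at 0.97. Prim1 had 373.6, 382 and 410.7 in activated cells and 197.2 and 193.7 in naive cells, a rise of 0.94. The fourth subunit of that complex, Pola2, had 165.5, 117.4 and 142.4 in activated cells and 72 and 93.5 in naive cells and did not pass, at 0.67 ± 0.20 (SE, adjusted p = 0.063). Pola2 passed with a filter at the 60th percentile and with the bioC split as a block, at 0.67 and 0.70.

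None of the 3 subunits of polymerase delta, the lagging strand polymerase, among the members passed. Each had all activated arrays above both naive arrays, as did 20.3% of all genes. Pold1, the catalytic subunit, had 220.6, 223.1 and 240.8 in activated cells and 139.3 and 197.7 in naive cells (0.42 ± 0.18, SE, adjusted p = 0.19). Pold2 had 205.4, 164.6 and 162.8 in activated cells and 146.2 and 136.8 in naive cells (0.29, adjusted p = 0.36). Pold3 had 122.6, 167.7 and 158.6 in activated cells and 107.3 and 102.5 in naive cells (0.44, adjusted p = 0.18). The 95% intervals of these 3 probe sets reached at most 0.86. A second Pold1 probe set had 154.4, 110.3 and 107.1 in activated cells and 68.2 and 72.7 in naive cells and did not pass either, at 0.68 ± 0.21 (SE, adjusted p = 0.088 in limma's fit over probe sets). The small subunit Pold4, from the list of other replication genes, rose by 1.26, from a probe set with 270, 317.1 and 315.4 in activated cells and 117.5 and 114 in naive cells.

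The sliding clamp and the clamp loader showed the same mix of called and uncalled subunits. Pcna, the ring that tethers polymerases to DNA, had 4326.7, 3907.4 and 3110.8 in activated cells and 2135.8 and 1886 in naive cells. Its rise of 0.90 ± 0.18 (SE, adjusted p = 0.011) lost its call without activated replicate 2, at 0.87, and without naive replicate 2, at 0.81. The loader RFC opens that ring, and its small subunits Rfc3, Rfc4 and Rfc5 rose. Rfc4 had 417.2, 420.1 and 376.9 in activated cells and 135.9 and 111 in naive cells (1.60 ± 0.17, SE, adjusted p = 1.9e-04). Rfc5 had 300.6, 309.5 and 281.2 in activated cells and 115.6 and 117.4 in naive cells, a rise of 1.24. Rfc3 had 180.8, 149.5 and 126.1 in activated cells and 68.5 and 53.7 in naive cells, a rise of 1.12 that lost its call without naive replicate 2, at 0.98. The remaining small subunit Rfc2 and the large subunit Rfc1 did not pass. Rfc2 had 203.9, 282.9 and 250.7 in activated cells and 180.8 and 170.2 in naive cells (0.44, adjusted p = 0.17). Rfc1 had 183.8, 168.7 and 187.4 in activated cells and 189.8 and 205.8 in naive cells, slightly below the naive arrays throughout (-0.13 ± 0.16, SE, adjusted p = 0.70). The sign of Rfc1 depends on the probe set, since its other tested probe sets lay at 0.39 and 0.52 and the mean over all at 0.26.

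Genes that finish, protect and repackage the new strands rose, apart from Rpa1. The ligase Lig1, which seals Okazaki fragments, had 242.4, 245.5 and 195.7 in activated cells and 76.3 and 70.8 in naive cells, a rise of 1.44 ± 0.18 (SE, adjusted p = 5.5e-04). The flap nuclease Fen1, which trims them, had 447.3, 513.4 and 449.4 in activated cells and 273 and 317.8 in naive cells (0.64, adjusted p = 0.030). Fen1 lost its call when activated replicate 1 or 2 was left out, at 0.68 and 0.58, when either naive array was, at 0.54 and 0.75, with median centring and without the intensity trend. RPA coats single-stranded DNA, and its small subunits rose while the large one did not pass. Rpa2 had 323.9, 273.7 and 323.2 in activated cells and 134.5 and 152.2 in naive cells, a rise of 1.02. Rpa3 had 405.7, 500.4 and 431.8 in activated cells and 269.9 and 249.4 in naive cells, a rise of 0.74. The call of Rpa3 was lost without activated replicate 2, at 0.66, and without naive replicate 1, at 0.79, or 2, at 0.69. Rpa1 had 2171.9, 3004.7 and 3373.1 in activated cells and 2388.3 and 2938.2 in naive cells, which overlapped (0.08 ± 0.21, SE, interval -0.38 to 0.54). Its sign turned without activated replicate 3 and without naive replicate 1, at -0.052 and -0.068. A second Rpa1 probe set had 985.6, 1201.9 and 1153.8 in activated cells and 878.2 and 816.1 in naive cells, without overlap. It did not pass either, at 0.38 (adjusted p = 0.2 in limma's fit over probe sets).

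The chromatin assembly subunit Chaf1b, which helps to place histones behind the fork, had 117.2, 128.1 and 121.1 in activated cells and 44.9 and 40.1 in naive cells. It rose by 1.24 ± 0.18 (SE, adjusted p = 0.0016). Slbp, which binds the stem-loop of histone transcripts, had 979.2, 894.2 and 697.1 in activated cells and 322.5 and 267.9 in naive cells, a rise of 1.48. Timeless and Tipin bind each other and stabilise paused forks, and both rose. Tipin had 452, 574 and 537.6 in activated cells and 200.1 and 194.5 in naive cells, a rise of 1.33. Timeless had 190, 145.6 and 150.1 in activated cells and 103.7 and 57.8 in naive cells (0.91 ± 0.23, SE, adjusted p = 0.032). It lost its call when any array other than naive replicate 1 was left out, at 0.80, 0.98, 0.96 and 0.56 without activated replicates 1, 2 and 3 and naive replicate 2, and without the filter or the intensity trend.

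Other replication genes moved in the same direction where they passed. Of 43 tested genes on a list of 44 others, 15 rose and 0 fell (6.36% and 4.14% of all genes), with a median log2 fold change of 0.41. With all probe sets averaged, 18 rose and Mcmbp and Donson fell, by 0.73 and 0.65. On the probe set used for each gene, Mcmbp lay at 0.12 and Donson at -0.38, and neither passed. The largest rise was that of Pclaf, a small protein that binds the Pcna clamp, with 1812, 2000 and 1821.7 in activated cells and 194.3 and 148.1 in naive cells (3.35 ± 0.17, SE, adjusted p = 5.2e-06). Clspn, the fork protein claspin, rose by 2.37. Uhrf1 and Hells, which serve DNA methylation behind the fork, rose by 2.30 and 2.11. Dnmt1, the maintenance methyltransferase that Uhrf1 recruits, had 387.7, 427.1 and 394.1 in activated cells and 340.1 and 367.6 in naive cells and did not pass (0.18, adjusted p = 0.53). Dnmt1 was singled out after its values were seen.

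Most members are measured by several probe sets, and these did not always give 1 answer. In a fit over 29240 probe sets, 46 of 92 tested member probe sets rose and 0 fell, against 4.80% (higher) and 2.94% (lower) of all probe sets. Of 31 members with more than 1 tested probe set, 5 had probe sets on both sides of 0, namely Orc2, Orc3, Orc4, Pole2 and Rfc1, none of them called. In 6 members, Mcm3, Mcm5, Mcm10, Cdc45, Chaf1b and Slbp, probe sets of the gene spanned more than 1 in log2 fold change. Of these, Mcm3 ran from 0.22 to 2.32, Mcm5 from 0.35 to 1.81, Mcm10 from 0.50 to 1.68, Cdc45 from 0.23 to 1.57, Chaf1b from 0.09 to 1.24 and Slbp from 0.09 to 1.48. The lowest probe sets of Mcm5, Mcm10 and Chaf1b were dim, with activated means of 12.53, 15.67 and 14.9, where the added 16 shrinks changes. Their ratios of means were 2.04, 2.75 and 1.17. The lowest of Cdc45 and Slbp were brighter, with activated means of 48.47 and 75.57 and ratios of 1.25 and 1.07. The Mcm3 probe set at 0.22 had 22.7, 26.5 and 27.9 in activated cells and 17.2 and 22.7 in naive cells, the one at 2.32 had 348.5, 285 and 197.5 in activated cells and 59.6 and 27.6 in naive cells, and 4 of the 5 passed.

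**Figure D4:**
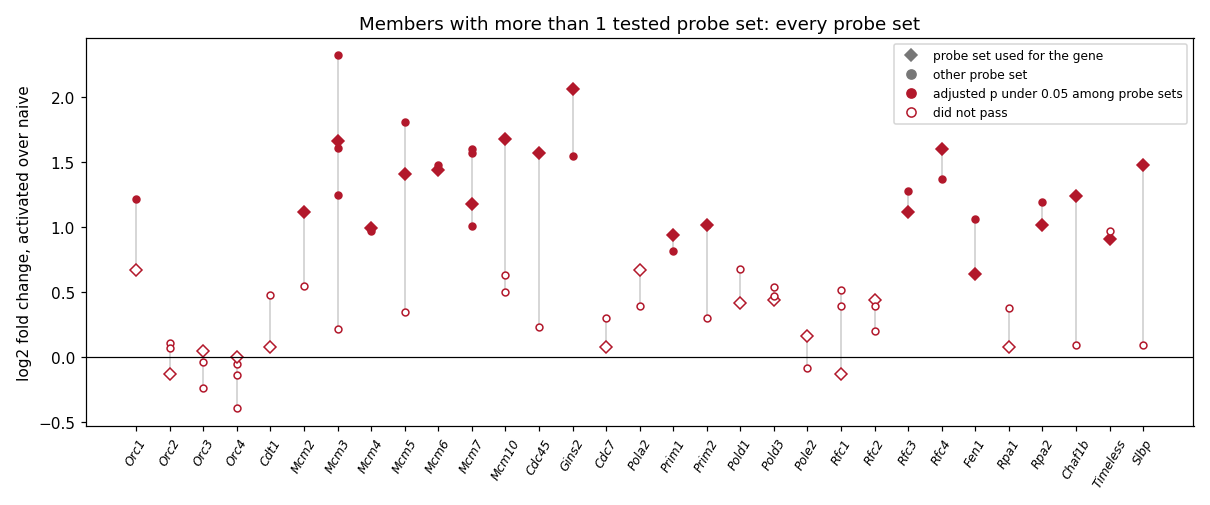
Log2 fold change, activated over naive, of every tested probe set of the 31 members with more than 1; diamonds mark the probe set used for the gene and filled marks passed at an adjusted p under 0.05 among all probe sets. Mcm3 spans 0.22 to 2.32, while those of Mcm4 lie at 0.97 and 0.99 and those of Mcm6 at 1.44 and 1.48.

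The activated replicates lay close together over the members as a whole. Against the mean of the naive arrays, the median log2 difference over the 46 members was 0.99, 0.93 and 0.92 on activated replicates 1, 2 and 3. Among the 29 members that rose, 10 were highest on replicate 1, 13 on replicate 2 and 6 on replicate 3. The order of the replicates differed between probe sets of some genes. Of 12 members with more than 1 called probe set, 4 had the same replicate highest on all of them, and in 6 a replicate that was highest on 1 called probe set was lowest on another. For Mcm5, 1 probe set read 493.4, 342.9 and 277.5 on activated replicates 1, 2 and 3, and the one used for the gene read 1106.4, 1230.5 and 1321.3. For Mcm6, the probe set used for the gene read 780.2, 579.6 and 590.3, and another read 466.8, 556.7 and 665.9. Replicate 1 was therefore the highest of the activated arrays by 1 probe set of the gene and the lowest by the other. For Mcm2, the probe set used read 520.3, 434 and 338.2, and another, which did not pass, read 300.3, 334.2 and 350.5. In these 3 genes the order of the activated replicates depends on the probe set. A replicate was likewise highest on 1 called probe set and lowest on another in Fen1, Gins2, Mcm7 and Rfc4. In some other genes the called probe sets shared their lowest replicate. All 4 of Mcm3 and both of Rfc3 were lowest on replicate 3, both of Mcm4 and of Prim1 on replicate 1, and both of Rpa2 on replicate 2. The highest replicate was also shared in Rfc3, Prim1 and Rpa2, but not in Mcm3 or Mcm4.

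**Figure D5:**
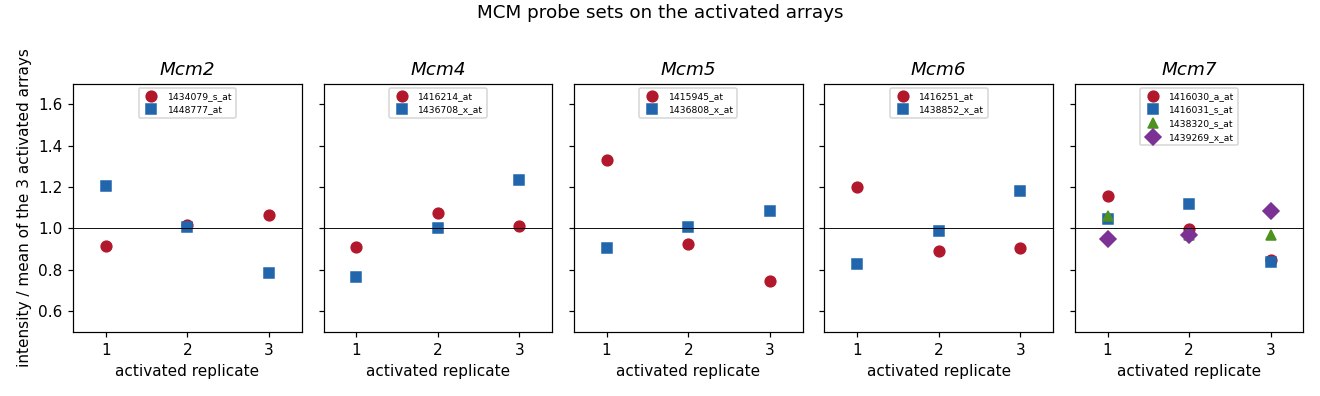
Intensity of MCM probe sets on the 3 activated arrays, each divided by its own mean over those arrays; probe sets with an activated mean of 100 or less are left out, and Mcm3 is not drawn. For Mcm2, Mcm5 and Mcm6 activated replicate 1 is the highest by 1 probe set and the lowest by the other. For Mcm7 replicate 1 is the highest by some probe sets and the lowest by another.

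The arrays also differ in the bioC hybridisation control, with a mean intensity of 714, 634 and 169 on activated replicates 1, 2 and 3 and 716 and 207 on naive replicates 1 and 2. The labels give no batch that matches this. Within the arrays high in bioC, 2 activated and 1 naive, the median log2 difference over the 46 members was 1, against -0.04 over all genes. Within the arrays low in bioC, 1 activated and 1 naive, it was 1.02, against -0.03 over all genes. The sizes in the 29 members that rose ran from 0.61 to 2.77 on the high side and from 0.48 to 2.86 on the low side; their sign on each side follows from the groups not overlapping in any of them. With the split as a block, 31 members rose and 1, Orc5, fell.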

How the data were processed

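Total RNA (6 µg) was made into biotinylated cRNA for Affymetrix arrays, per the labels' protocols. The authors deposited 1 linear intensity per probe set and array, 45101 in all; how probes were summarised is not given in the sources used here. Each array had a 2% trimmed mean of 100, and changes are relative to that level. The platform annotation named the probe sets, with symbols updated through a RefSeq gene table (GRCm38.p6), and 34945 had 1 symbol. The probe set with the highest mean log2 value stood for each gene, without the 64 controls. Values were transformed as log2(intensity + 16), filtered at the 40th percentile on at least 2 arrays, and fitted over 12873 genes with limma 3.58.1 (R 4.3.3, lmFit, eBayes with trend), with two-sided p-values adjusted by Benjamini-Hochberg and called under 0.05. Fold changes are activated over naive. The code was tested on simulated arrays. The number of arrays, 3 and 2, limits the precision. The labels call the samples biological replicates of independent experiments, and no pair of arrays shared more than 0.946% of its values. The members, the lists, the alternatives and the rule for named genes were chosen with earlier results of these data known. By that rule all members are named, and of the other replication genes the 4 largest called rises and the largest called falls, of which there were 0. Every array's value is given for each tested member, which goes beyond the rule. Gins3, Pold4, Mcmbp, Donson and Dnmt1 were named after their values were seen.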

Additional observations from a re-analysis of the deposited data

How the results depend on the processing

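The rises of the members held in number: 23 to 27 without 1 activated array and 24 to 31 under 13 other settings, against 29. Of the 29, 0 changed sign. Leaving out an array could not turn a sign, as the groups do not overlap in any of them. Settings that changed only the filter or the variance model left the fold changes as they were. Counts over all genes moved more: leaving out 1 array gave 461 (without naive replicate 2) to 721 rises and 188 to 521 falls (294 without activated replicate 2, 345 without naive replicate 1, 188 without naive replicate 2), and the falls were 349 with no filter and 859 with the bioC split as a block, against 533. One member, Orc5, fell with averaged probe sets and with the bioC split; other replication genes had 2 falls with averaged probe sets; and members with all activated arrays below both naive arrays numbered 1 with median centring, against 2. The members' median of 0.96 was 1.03 and 0.79 with pseudocounts of 1 and 64, 0.84 with averaged probe sets and 0.91 on probe sets without a shared-sequence suffix, where 41 members were fitted. Uncalled members turned sign as follows. With averaged probe sets Orc2 was 0.018, Orc3 -0.075, Orc4 -0.15 and Rfc1 0.26. Orc4 was -0.14 without suffix probe sets, -0.010 with the bioC split, and -0.025 to 0.038 on leaving out 1 array. On leaving out 1 array Cdt1 ran from -0.039 to 0.20, Cdc7 from -0.079 to 0.18, Pole2 from -0.022 to 0.34 and Rpa1 from -0.068 to 0.26. Where 1 naive array was left, it was taken to vary like the others. The cause of these shifts was not tested. Activated and naive samples share replicate numbers 1 and 2, whose deviations correlated at 0.17 and -0.13. These values cannot decide whether the numbers mark pairs. The deviations of the 2 naive arrays mirror each other, and these arrays also differ in bioC. The numbers were not taken as pairs in the main fit. With the replicate block 29 members rose and 0 fell, 974 genes rose and 796 fell in all, and Cdc7 was -0.079 and Rpa1 -0.052; activated replicate 3, with no partner, adds nothing to those values.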

Other observations

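A probe set with the symbols of both Orc4 and the activin receptor Acvr2a was left out of the comparison, as no gene can be named from it. It had 8.1, 8.2 and 16 in activated cells and 23 and 38.9 in naive cells (log2 fold change -0.80, adjusted p = 0.11 in limma's fit over probe sets). Of the 99 member probe sets, 7 lay below the filter, none above 20.6 on any array.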
